A study of Mus musculus with 20 samples.

Results

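The genes described here are the solute carrier (Slc) genes that mouse bone marrow-derived macrophages expressed at a mean normalized count of 50 or more over all 20 libraries, apart from 15 better known carriers that were left out by name. They number 154 of the 17787 genes in the deposited table. The table holds 280 symbols that start with Slc and a family number. Of these, 169 reached the level and 111 did not. The level of each gene, averaged over all groups, chose the members, so that level is not a finding. The members nearest above it were Slc4a3 (mean 51.3), Slc25a14 (51.5) and Slc7a7 (52.2), and the genes nearest below were Slc8a1 (46.8), Slc52a2 (45.9) and Slc17a9 (43.0). All 6 group means were at 50 or more for 128 members. The other 26 reached the mean through some of their groups, so that a difference between groups is built into how they were chosen. These are Slc25a23, Slc2a8, Slc46a1, Slc46a3, Slc6a13 and Slc9b2, with 2 groups at the level, Slc22a18, Slc37a1 and Slc7a7 with 3, Slc16a7, Slc1a2, Slc25a14, Slc25a33, Slc26a11, Slc4a3 and Slc5a6 with 4, and Slc13a3, Slc18a1, Slc19a1, Slc22a15, Slc22a4, Slc24a3, Slc25a40, Slc25a43, Slc41a3 and Slc9a7 with 5. By symbol alone the rule also took in 3 genes that encode no carrier: Slc4a1ap (kanadaptin, an adaptor protein), Slc7a6os (a gene on the strand opposite Slc7a6) and Slc9a3r1 (NHERF1, a scaffold protein).

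Marrow cells of male C57BL/6J wild type mice, whose age the labels do not give, were differentiated for 7 days with L929 cell supernatant, and each culture then received 50 nM control siRNA or siRNA against Brg1 for 48 h. Brg1, encoded by Smarca4, is an ATPase that powers BAF complexes, which remodel chromatin. During the last 6 h the cells had vehicle (ethanol and buffered saline, 3 libraries per siRNA), 100 ng/ml lipopolysaccharide (LPS, a bacterial cell wall component, 3 per siRNA) or LPS plus the synthetic glucocorticoid dexamethasone (Dex) at 1 µM (4 per siRNA). All groups went through transfection in serum-free medium, each arm used a single siRNA product, and no group received Dex without LPS. The labels do not say whether libraries of a group came from separate animals or cultures, and p-values therefore reflect only how far these libraries spread, which may be technical.

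Solute carriers move nutrients, ions, vitamins and metabolites across the plasma membrane and the membranes of organelles. Each family is named by a number, and members of a family often share a class of substrate. Macrophages take up and digest other cells and microbes, so carriers that release amino acids, sugars, heme and sialic acid from the lysosome and carriers for iron, zinc and copper are known to matter in these cells. LPS is known to shift macrophages towards glycolysis and cytokine production, and glucocorticoids are known to dampen that state.

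A normalized count is the number of reads of a gene after division by the library's size factor, and 1 library held 13.69 to 18.71 M reads. The 154 genes took up 0.913% to 1.289% of the reads of a library. Every Brg1 siRNA library had less Smarca4 (340.2 to 621) than every control siRNA library (1476 to 2989.8). Marker genes of macrophages, 10 in all, were all detected. By the calls described below, 4 of them were higher with Brg1 siRNA and 3 lower (Csf1r, Mrc1 and Cd14) in vehicle. In LPS 6 were higher and 2 lower (Mrc1 and Itgam), and in Dex+LPS 6 and 3 (Csf1r, Mrc1 and Itgam). Their sum was 309716 to 319598 per library with control siRNA and vehicle. That sum was 404711 to 414206 with Brg1 siRNA and vehicle, 522451 to 536492 against 327723 to 346739 with LPS, and 448075 to 458578 against 332146 to 368839 with Dex+LPS. The sum of 7 dendritic cell markers went the other way, from 1848 to 1916 down to 416 to 449 in vehicle, from 2928 to 3586 down to 1251 to 1432 with LPS, and from 1926 to 2111 down to 600.2 to 681 with Dex+LPS, mostly through Itgax, while Flt3 and Siglech were at 0 in all control vehicle libraries. Markers of the remaining types were low: the sum per library was at most 565 for neutrophils (Ly6g and Elane at 0 in several groups), 182 for T and NK cells (Cd3g or Cd8a at 0 in 5 of 6 groups), 167 for mast cells and basophils, 25.9 for B cells, 11.8 for fibroblasts and 2.62 for erythroid cells. T and NK cell markers summed to more with Brg1 than with control siRNA, at 119 to 175 against 69.5 to 92.0 in vehicle, 73.5 to 182 against 26.7 to 48.5 in LPS and 66.5 to 171 against 21.4 to 28.1 in Dex+LPS. The part of these shifts in the results below was not tested, and in bulk RNA fewer cells of a type and less RNA per cell cannot be told apart. The labels give 4 libraries numbers from a higher series than the rest, 1 in each LPS and Dex+LPS group. In compared LPS and Dex+LPS groups, deviations from the group mean correlated at 0.207 to 0.406 in the 4 pairs of libraries that were both of this series. They correlated at -0.205 to -0.005 in the 20 pairs with 1 library of each series. Deviations cancel out within a group, so these positive and negative values are not separate observations. Between vehicle libraries and LPS libraries of the higher series the values were -0.041 to 0.041. Where a call printed below was lost without these 4 libraries, its adjusted p is given beside it.

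The knockdown was compared with control siRNA within each treatment. A gene was called when limma, fitted over all 12061 tested genes and 20 libraries, gave an adjusted p under 0.05. Every member entered the fit. In vehicle 21 members were higher and 26 lower with Brg1 siRNA, which is 30.5% of them, where 20.1% of all tested genes and 23.3% of those with a mean of 50 or more were called. In LPS 33 were higher and 36 lower (44.8%, against 33.1% of all genes and 37.4% of genes at the same level). In Dex+LPS 36 were higher and 25 lower (39.6%, against 34.3% and 38.7%), a share near that of genes at the same level. By direction, 9.39% of all tested genes were higher and 10.8% lower in vehicle, 17.3% and 15.8% in LPS, and 19.0% and 15.3% in Dex+LPS. The median log2 fold change of the members was 0.055 in vehicle, -0.056 in LPS and 0.0063 in Dex+LPS, beside 0.0050, 0.0084 and 0.0087 for all genes. The split between higher and lower depended on scaling. Plain library totals in place of the deposited size factors lowered the median of all genes to -0.12 in LPS. With them the LPS counts were 21 higher and 53 lower and the Dex+LPS counts 26 and 44. With TMM scaling the counts were 31 and 39 in LPS and 32 and 32 in Dex+LPS.

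**Figure D1:**
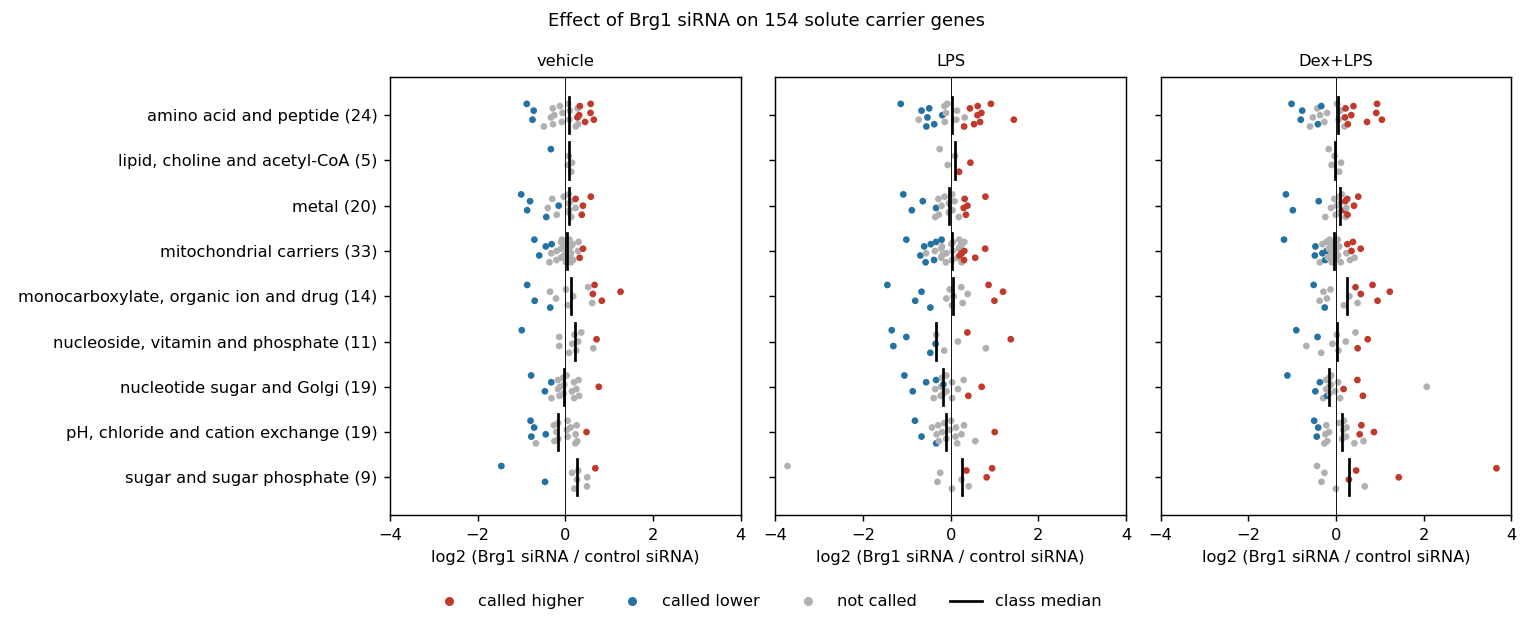
Log2 ratio of Brg1 siRNA to control siRNA for each of the 154 genes (points), grouped by class of carrier with the number of genes in brackets, in vehicle, LPS and Dex+LPS. Red and blue points were called higher or lower at an adjusted p under 0.05, grey points were not called, and the black bar is the class median. Class medians lie between -0.33 and 0.30, and single genes of every class lie to both sides.

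The 3 knockdown comparisons share no libraries. In all 3 of them 11 members were higher (7.1%, against 5.2% of all tested genes) and 11 were lower (7.1%, against 4.6%). The 11 higher ones were Slc6a8, Slc7a8, Slc38a9, Slc31a1, Slc31a2, Slc25a37, Slc17a5, Slc26a11, Slc35d2, Slc9a9 and Slc50a1. The 11 lower ones were Slc1a5, Slc6a12, Slc41a3, Slc48a1, Slc25a13, Slc25a30, Slc16a13, Slc20a2, Slc35e1, Slc35e4 and Slc12a4. Slc26a11 missed the level only with control siRNA in LPS and Dex+LPS, and Slc41a3 only with Brg1 siRNA in Dex+LPS. A difference in those comparisons is built into how these genes were chosen. No call was made in any of the 3 for 59 members (38.3%, against 50.4% of all genes), among them Slc25a3, the mitochondrial phosphate carrier. For 4 members (2.6%, against 1.8% of all genes) the direction turned between treatments: Slc43a3, Slc44a1, Slc37a2 and Slc39a1.

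Among the 24 genes of the amino acid and peptide families, which include Slc7a6os, 7 were higher and 3 lower in vehicle, 9 and 7 in LPS, and 9 and 5 in Dex+LPS. Slc1a5 encodes ASCT2, a plasma membrane exchanger that brings in glutamine and other neutral amino acids. In vehicle the control libraries read 427, 465 and 527 and the Brg1 siRNA libraries 258, 284 and 299. The values were 260.4, 289 and 258 against 113, 129.6 and 122 in LPS, and 247, 269, 255 and 263 against 106, 127, 137 and 143 in Dex+LPS. Brg1 siRNA libraries lay below the control libraries in each treatment, and the log2 fold changes were -0.75 (SE 0.11), -1.14 (SE 0.11) and -1.01 (SE 0.095). The limma adjusted p-values were 7.18e-05, 3.72e-07 and 1.91e-07. Slc7a8, the neutral amino acid exchanger LAT2, had 497, 531 and 535 with control and 747, 779 and 806 with Brg1 siRNA in vehicle, 1432, 1453 and 1502 and 2289, 2268 and 2149 in LPS, and 463, 421, 482 and 476 and 837, 923, 892 and 876 in Dex+LPS. It rose by 0.58, 0.61 and 0.94 on the log2 scale, with no overlap between the libraries of the 2 siRNAs.

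Slc38a1 and Slc38a2, which encode the sodium-coupled glutamine importers SNAT1 and SNAT2 and are neighbours on chromosome 15 (43954 bases apart in GRCm38.p6), were called higher with Brg1 siRNA in LPS and Dex+LPS and not in vehicle. Slc38a1 had 1764, 1791 and 1693 with control and 3402, 3118 and 3405 with Brg1 siRNA in LPS, and 938, 719, 1038 and 1020.0 against 1961, 1906, 1894 and 1845 in Dex+LPS. In vehicle it had 1106, 1284 and 1363 against 1469, 1496 and 1575 (log2 fold change 0.28, SE 0.10, adjusted p = 0.0705). The effect in LPS was larger than in vehicle by 0.64 on the log2 scale for Slc38a1 (limma interaction, adjusted p = 0.0076) and by 0.61 for Slc38a2 (adjusted p = 0.000382). Slc6a8, the creatine importer, rose in vehicle from 2853, 2937 and 3169 to 4399, 4266 and 4656 and in all 3 treatments by 0.57, 0.62 and 0.71 on the log2 scale. Slc38a9, the lysosomal carrier that reports arginine to the growth kinase mTORC1, rose by 0.45, 0.70 and 0.40. Slc66a1, an exporter of cationic amino acids from the lysosome, rose by 0.65 in vehicle and 0.53 in LPS.

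The 2 histidine and peptide carriers of endosomes and lysosomes are known to pass bacterial muramyl dipeptide to the sensor Nod2. With Brg1 siRNA Slc15a3 was called only higher and Slc15a4 only lower. Dex+LPS was the only treatment in which both were called. Slc15a3 rose with Brg1 siRNA in vehicle (2334, 2362 and 2353 to 3062, 2801 and 2902) and in Dex+LPS (8768, 9935, 8539 and 7938 to 10204, 9967, 10249.8 and 9969.7), by 0.31 and 0.20 on the log2 scale. Slc15a4 fell in LPS (1211, 1196 and 1216 to 1088, 1102 and 984) and in Dex+LPS (1176, 1214, 1149 and 1215 to 863, 876, 869 and 965), where it fell by 0.19 and 0.41. Libraries of the 2 siRNAs did not overlap in these 4 comparisons, though for Slc15a3 in Dex+LPS 9935 and 9967 nearly met. Of the 31-base words in Slc15a3 transcripts, 27.6% also occur in transcripts of other genes. A list of 23 genes around endolysosomal Toll-like receptor signalling, which are no solute carriers, had 9 higher and 3 lower in vehicle. It had 14 and 1 in LPS and 14 and 1 in Dex+LPS. The list is broader than these receptors: Nod1, Nod2, Ripk2, Lgmn, Ctsb and Ctsl are among those higher in LPS and Dex+LPS. Over all tested genes 9.39% were higher and 10.8% lower in vehicle, 17.3% and 15.8% in LPS, and 19.0% and 15.3% in Dex+LPS. Tasl, the adaptor that binds Slc15a4, was 427 ± 26.3 (SD, n = 3) with control and 712 ± 16.9 with Brg1 siRNA in vehicle. Of 31 tested genes of amino acid sensing at the lysosome by mTORC1, 4 were higher and 4 lower in vehicle, 4 and 3 in LPS, and 6 and 5 in Dex+LPS.

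Genes of the metal families numbered 20, of which 4 were higher and 5 lower in vehicle, 5 and 4 in LPS, and 6 and 3 in Dex+LPS. A fall of similar size in each treatment was seen for Slc48a1 (GRCm38.p6 chromosome 15, 97784365 to 97792692), which encodes HRG1, the carrier that takes heme out of the phagolysosome after red cells are digested. Its counts were 5113, 4682 and 4989 with control and 2597, 2337 and 2417 with Brg1 siRNA in vehicle, 4398, 4876 and 4488 and 2379, 2541 and 2516 in LPS, and 3982, 5263, 4027 and 4300.2 and 2138, 2145, 2319 and 2224 in Dex+LPS. Every Brg1 siRNA library was below every control library over all treatments. The log2 fold changes were -1.01 (SE 0.083), -0.89 (SE 0.083) and -0.98 (SE 0.072), with limma adjusted p = 1.14e-07, 2.74e-07 and 9.2e-09. Neither LPS nor Dex gave a call for Slc48a1 with either siRNA. Slc41a3, a magnesium carrier of mitochondria, fell by 0.81, 1.08 and 1.14 on the log2 scale. It missed the level in Dex+LPS with Brg1 siRNA alone, so the fall there is built into its choice. In vehicle it had 238, 234 and 231 with control and 119.6, 138 and 143 with Brg1 siRNA.

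Slc31a1 and Slc31a2, the copper carriers CTR1 and CTR2, were each a little higher with Brg1 siRNA in the 3 treatments. Slc31a2 had 1123, 1142 and 1075 against 1481, 1418 and 1429.9 in vehicle, 7988, 7835 and 7837 against 10085, 10226 and 9817 in LPS and 7833, 8732, 7591 and 7779 against 9722, 9555, 9323 and 9686 in Dex+LPS. The rises were 0.37, 0.35 and 0.26 on the log2 scale for Slc31a2 and 0.23, 0.30 and 0.26 for Slc31a1. Slc30a4, a zinc exporter of vesicles, was lower in vehicle only by its calls (571, 608 and 565 against 319.7, 315 and 315, log2 fold change -0.87, SE 0.12, adjusted p = 2.67e-05 by limma). Its effect in LPS differed from that in vehicle by 0.66 (limma interaction, adjusted p = 0.0123). Slc39a1, the zinc importer ZIP1, was lower in vehicle by 0.15 and higher in LPS and Dex+LPS by 0.32 and 0.19. Of the 31-base words in its transcripts, 27.7% also occur in transcripts of other genes on either strand, so its counts are uncertain.

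The 33 mitochondrial carriers of family 25 were the largest class, with 2 higher and 4 lower in vehicle, 6 and 8 in LPS, and 4 and 6 in Dex+LPS. Slc25a30, a carrier of the inner membrane also known as KMCP1, had 675, 697 and 729 with control and 462, 446 and 480.0 with Brg1 siRNA in vehicle, 340.5, 397 and 383 and 167, 188 and 199 in LPS, and 825, 787, 861 and 937 and 436, 339, 369.7 and 356 in Dex+LPS. It fell in each treatment without overlap, by 0.60, 1.01 and 1.19 on the log2 scale (limma adjusted p = 0.000183, 3.03e-07 and 5.39e-09). Slc25a13, the aspartate and glutamate exchanger citrin of the malate-aspartate shuttle, fell by 0.71, 0.45 and 0.31. Slc25a37, the iron importer mitoferrin-1, rose by 0.33, 0.30 and 0.56. In Dex+LPS its counts were 2175, 1816, 2292 and 2369 with control and 3193, 3059, 3116 and 3361 with Brg1 siRNA.

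Of 14 genes of the monocarboxylate, organic ion and drug families, 4 were higher and 3 lower in vehicle, 3 and 4 in LPS, and 5 and 2 in Dex+LPS. Slc17a5 encodes sialin, which exports sialic acid from the lysosome. Its counts were 809, 867 and 842 with control and 1362, 1305 and 1330.1 with Brg1 siRNA in vehicle, 182, 239 and 204 and 401, 424 and 317 in LPS, and 201, 198, 248 and 219.6 and 364, 444, 393 and 348 in Dex+LPS. It rose without overlap in each, by 0.67, 0.86 and 0.83 on the log2 scale. Slc26a11, a sulfate and chloride carrier, was higher by 1.19 in LPS and 1.23 in Dex+LPS. It missed the level with control siRNA in these treatments alone, so a rise there is built into its choice. In vehicle it had 584, 621 and 651 against 911, 1049 and 911 (log2 fold change 0.63, SE 0.19, adjusted p = 0.024 by limma), and that call was lost (adjusted p up to 0.0974) when any of 5 of the 6 vehicle libraries was left out, all but control replicate 3. Slc22a15 had 38.5, 35.6 and 45.4 with control and 100.5, 90.7 and 98.1 with Brg1 siRNA in vehicle. It missed the level in vehicle with control siRNA alone, so a rise is built into its choice and no test is given. Slc22a5, the carnitine importer OCTN2, rose in vehicle from 126, 131 and 132 to 247, 231 and 217, although 37.8% of its words occur in other genes. Slc16a13, a monocarboxylate carrier, fell by 0.87, 0.47 and 0.51.

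Of 11 genes of the nucleoside, vitamin and phosphate families, 1 was higher and 1 lower in vehicle, 2 and 5 in LPS, and 2 and 2 in Dex+LPS. Slc20a2, the phosphate importer PiT-2, had 143, 136 and 156 with control and 68.6, 67.2 and 81 with Brg1 siRNA in vehicle and fell by 1.00, 1.01 and 0.91 in the 3 treatments. Slc19a2, a thiamine importer, fell in LPS from 141, 135 and 141 to 49.9, 56.1 and 61.4 (log2 fold change -1.31, SE 0.16, adjusted p = 4.63e-06 by limma). In vehicle its counts overlapped between the siRNAs, at 121, 133 and 161 and 136, 115 and 124. Slc19a1, the reduced folate carrier, had 49.6, 60.2 and 87.7 against 17.5, 43.6 and 19.3 in LPS. It missed the level in LPS with Brg1 siRNA alone, so a fall is built into its choice and no test is given. Slc49a4, known as a lysosomal carrier of vitamin B6, rose in vehicle by 0.71 on the log2 scale. Slc46a3, a carrier of the lysosomal membrane, rose in LPS from 5.64, 9.26 and 11.8 to 22.4, 27.4 and 21.6 (log2 fold change 1.37, SE 0.30, adjusted p = 0.0019 by limma). These are low levels beside those in vehicle, which were 380.0, 602 and 400.2 and 692, 719 and 694 (log2 fold change 0.64, SE 0.30, adjusted p = 0.165 by limma).

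Among 9 genes of the sugar and sugar phosphate families, grouped by family number and including the multivitamin carrier gene Slc5a6, 1 was higher and 2 lower in vehicle, and 3 and 4 were higher with none lower in LPS and Dex+LPS. With library totals those counts were 1 and 3 higher and 0 and 1 lower. Slc5a3, the sodium-coupled myo-inositol importer, had the largest fall among members in vehicle, from 639, 601 and 547 to 203, 224 and 219 (log2 fold change -1.46, SE 0.24, adjusted p = 0.000202 by limma). In LPS its libraries overlapped, at 83.4, 76.4 and 105 with control and 86, 89.7 and 92.1 with Brg1 siRNA. Slc50a1, the sugar uniporter SWEET1, rose in the 3 treatments by 0.68, 0.95 and 0.46. Slc37a3 rose in Dex+LPS from 99.7, 41.7, 48.8 and 108 to 204, 185, 206 and 156 (log2 fold change 1.43, SE 0.23, adjusted p = 9.45e-05 by limma). Slc37a1 was called higher in Dex+LPS as well, but its control libraries there read 0, 0, 26.5 and 36, so that 2 of 4 were at 0 and no fold is given.

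The 19 nucleotide sugar and Golgi carriers of family 35 had 1 higher and 3 lower in vehicle, 2 and 5 in LPS, and 3 and 4 in Dex+LPS. Slc35d2, which carries UDP-N-acetylglucosamine into the Golgi, rose by 0.76, 0.71 and 0.61. Slc35e4 fell by 1.06 in LPS and 1.11 in Dex+LPS, and by 0.78 in vehicle (limma adjusted p = 0.0327), where that call was lost (adjusted p up to 0.121) without any of 5 of the 6 libraries, all but Brg1 siRNA replicate 2. Of 19 genes grouped with pH, chloride, bicarbonate and cation exchange, which include Slc4a1ap and Slc9a3r1, 1 was higher and 4 lower in vehicle, 1 and 3 in LPS, and 3 and 3 in Dex+LPS. Slc9a9, the endosomal sodium-hydrogen exchanger NHE9, had 214, 257 and 204 against 487, 417 and 449 in LPS and rose by 0.48, 1.00 and 0.87. Slc12a4, the potassium-chloride exporter KCC1, fell by 0.71, 0.33 and 0.44. Slc24a5, a potassium-dependent sodium-calcium exchanger, fell by 0.80 in vehicle, and 40.2% of its words occur in other genes. Of the 5 genes of the lipid, choline and acetyl-CoA families, 0 were higher and 1 lower in vehicle, 2 and 0 in LPS, and 0 and 0 in Dex+LPS. The scaffold gene Slc9a3r1 fell by 0.82 in LPS and 0.50 in Dex+LPS.

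**Figure D2:**
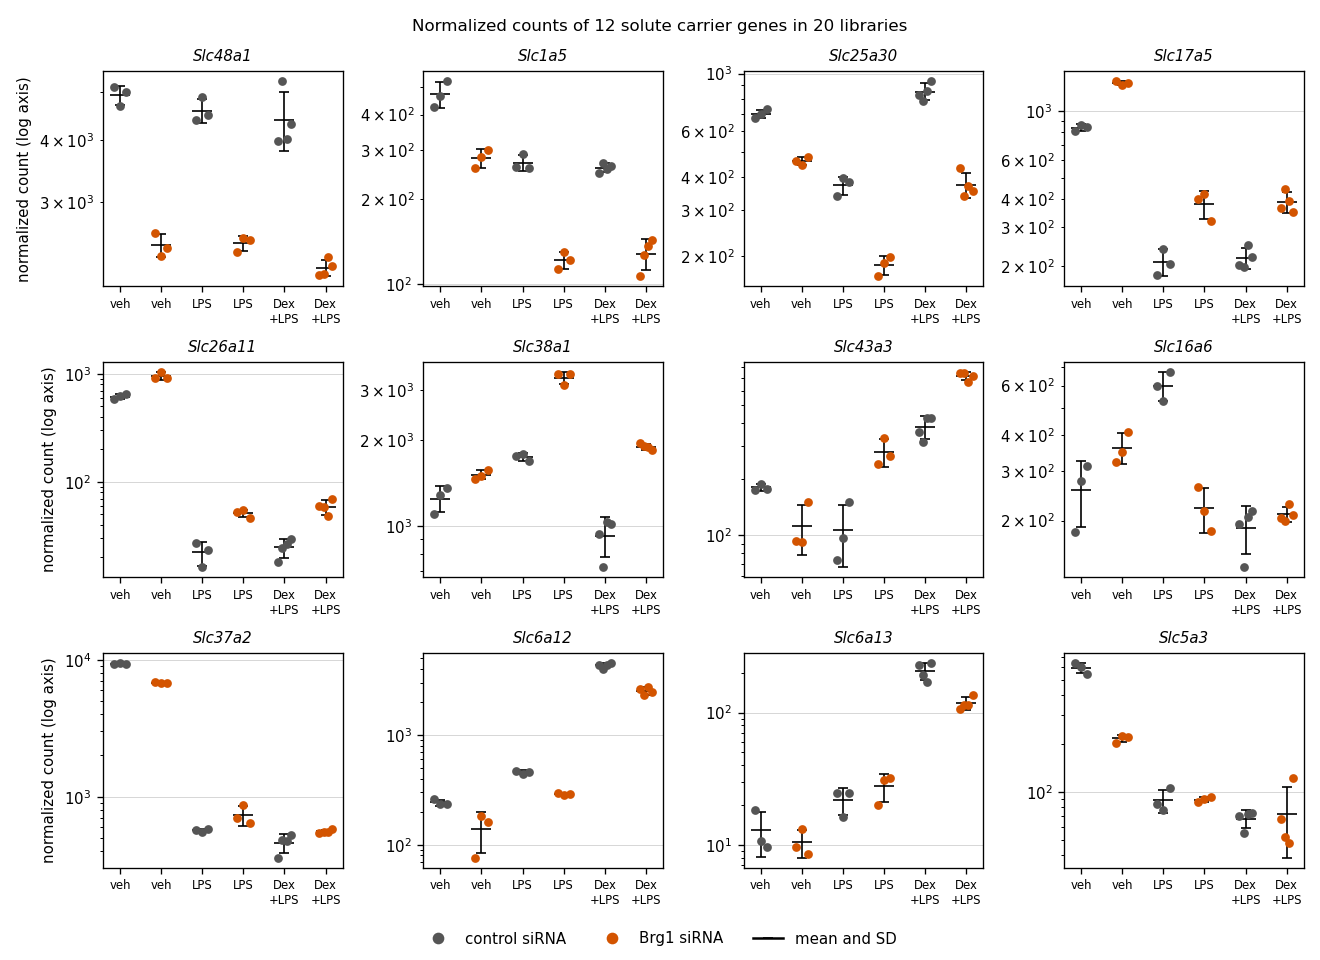
Normalized counts (log axis, a separate range per panel) of 12 members in the 20 libraries, by treatment and siRNA. Each point is a library, and the bar and whiskers are the mean and SD of its group (n = 3 for vehicle and LPS, n = 4 for Dex+LPS). Slc48a1 and Slc1a5 are lower with Brg1 siRNA in every treatment, Slc17a5 is higher in every treatment, and Slc43a3 changes the direction of the siRNA difference between vehicle and LPS.

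LPS moved most members. With control siRNA 56 were higher and 69 lower than in vehicle (81.2%, against 73.0% of all tested genes, 36.0% higher and 37.0% lower, and 76.4% of those at the same level). With Brg1 siRNA 53 were higher and 76 lower (83.8%, against 72.8% of all genes, 35.4% higher and 37.4% lower, and 76.3% of those at the same level). Of the 128 members with all 6 group means at 50 or more, 51 were higher and 55 lower with control siRNA (82.8%, against 75.1% of the 8198 such genes), and 49 and 59 with Brg1 siRNA (84.4%, against 74.9%). Over all members the median log2 change was -0.11 with control siRNA, beside -0.037 for all genes. The split depended on the scaling. Library totals lowered the median of all genes to -0.61 with control siRNA and -0.72 with Brg1 siRNA, and gave 32 higher and 101 lower and 33 and 106. In the sugar and sugar phosphate families, the 6 genes with all 6 group means at 50 or more (Slc37a2, Slc5a3, Slc45a4, Slc2a9, Slc37a3 and Slc50a1) were all called lower with both siRNAs. The other 3 were members through some groups: Slc2a8 and Slc37a1 were called lower with both siRNAs, and Slc5a6, which carries vitamins, with Brg1 siRNA, where its libraries differed over 10-fold. With library totals, 8 and 9 of the 9 were lower with control and Brg1 siRNA. The glucose carriers Slc2a1, Slc2a3 and Slc2a6 are among those left out by name, so these counts do not cover all sugar carriers. Genes of the metal families had 11 higher and 7 lower of 20 at a median of 0.50 with control siRNA. With library totals these were 7 and 9, and the median turned to -0.082. Genes of family 35 had 5 higher and 11 lower of 19, and those of the amino acid and peptide families 10 and 11 of 24.

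**Figure D3:**
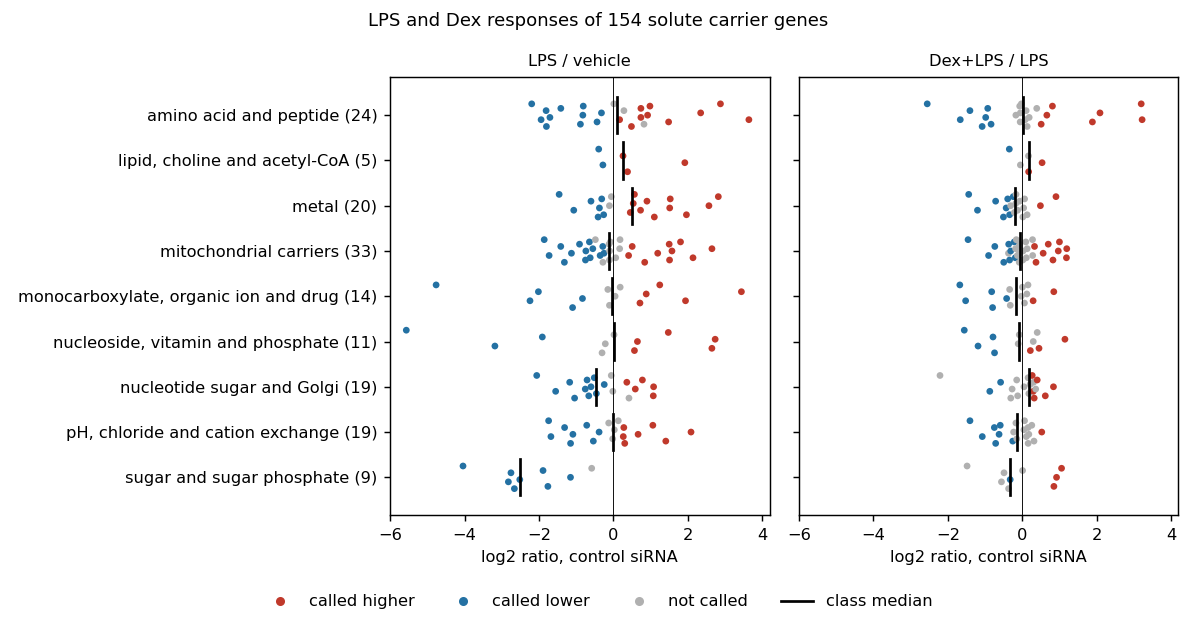
Log2 ratio of LPS to vehicle (left) and of Dex+LPS to LPS (right) with control siRNA for the 154 genes, by class with the number of genes in brackets. Red, blue and grey points were called higher, called lower or not called, and the black bar is the class median. In the LPS panel 8 of the 9 genes of the sugar families were called lower. For Slc2a8 and Slc37a1 among them, the fall is built into how they were chosen. The 6 genes of these families with every group mean at the level or above were all called lower. The median over all 9 genes, which includes Slc2a8 and Slc37a1, is -2.51, and no other class has a median below -0.46 there.

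Among members with all 6 group means at 50 or more, the largest fall with control siRNA was that of Slc37a2, an exchanger of glucose 6-phosphate and phosphate in the endoplasmic reticulum. It was among the most abundant members in vehicle and fell from 9236, 9537 and 9309 to 570.5, 551 and 583 in LPS (log2 fold change -4.04, SE 0.11, adjusted p = 4.83e-16 by limma). Slc5a3 fell from 639, 601 and 547 to 83.4, 76.4 and 105. A further 4 genes were members only through vehicle, or in the case of Slc26a11 through all groups but LPS and Dex+LPS with control siRNA, so their values are given without a test. Slc46a3 had 380.0, 602 and 400.2 in vehicle and 5.64, 9.26 and 11.8 in LPS with control siRNA, and Slc26a11 had 584, 621 and 651 and 27.1, 16.2 and 23.5. The glucose carrier GLUT8 gene Slc2a8 had 153, 134 and 145 and 15.8, 22 and 21.4, and the proton-coupled folate carrier gene Slc46a1 129, 137 and 135 and 18, 10.4 and 13.9. Slc45a4 fell by 2.51 and Slc43a2, the large neutral amino acid carrier LAT4, by 2.19 on the log2 scale. Slc37a1 reached the level in vehicle and not in LPS with control siRNA, so a fall is built into its choice and no test is given. It had 93.7, 101 and 101 in vehicle and 16.9, 12.7 and 15 in LPS. Its call was also lost in 5 alternatives.

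Genes of lysosomal carriers moved both ways with LPS. With control siRNA Slc17a5 fell by 2.01, Slc38a9 by 1.81 and Slc36a1, a proton-coupled exporter of small amino acids, by 1.80 on the log2 scale, while Slc49a4 rose by 2.65. Slc15a3, also of endosomes and lysosomes, rose from 2334, 2362 and 2353 to 17782, 17434 and 16756 (log2 fold change 2.88, SE 0.062, adjusted p = 1.05e-17 by limma), with 27.6% of its words shared with other genes. The copper carriers rose as well: Slc31a1 went from 976, 1081 and 1072 to 6037, 6611 and 5968 and Slc31a2 from 1123, 1142 and 1075 to 7988, 7835 and 7837. Slc1a2, the glutamate importer GLT-1, which reached the level in the LPS and Dex+LPS groups and not in vehicle, had 13.4, 16.6 and 12.2 in vehicle and 189, 189.7 and 179.7 in LPS. Slc13a3, an importer of dicarboxylates such as succinate, had 69.5, 65.5 and 59.4 and 837, 650.2 and 669, and fell short of the level with Brg1 siRNA and vehicle alone. Slc28a2 (a purine nucleoside importer), Slc25a37 and Slc7a1 (the arginine importer CAT1) rose by 2.74, 2.65 and 2.35. Slc28a2 shares 46.3% of its words with other genes.

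The promoters of 4 members held the palindrome TCACGTGA, the core of the CLEAR element, which lysosomal genes are known to carry and which transcription factor TFEB binds. They are shown because all 4 genes fell with LPS and include the lysosomal Slc36a1 and Slc37a3. With control siRNA 44.8% of all members were called lower with LPS. The sequences are from RefSeq, build GRCm38.p6, 250 bases before to 50 bases after a start site, 5′ to 3′, with the motif in capitals.
Slc36a1, chr11:55204090-55204389, + strand: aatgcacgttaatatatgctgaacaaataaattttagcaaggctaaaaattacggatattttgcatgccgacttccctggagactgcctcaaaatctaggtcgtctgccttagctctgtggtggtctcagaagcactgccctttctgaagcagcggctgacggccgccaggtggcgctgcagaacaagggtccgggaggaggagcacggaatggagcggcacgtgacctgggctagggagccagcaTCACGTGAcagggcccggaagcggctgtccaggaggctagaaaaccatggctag
Slc37a3, chr6:39377658-39377957, - strand: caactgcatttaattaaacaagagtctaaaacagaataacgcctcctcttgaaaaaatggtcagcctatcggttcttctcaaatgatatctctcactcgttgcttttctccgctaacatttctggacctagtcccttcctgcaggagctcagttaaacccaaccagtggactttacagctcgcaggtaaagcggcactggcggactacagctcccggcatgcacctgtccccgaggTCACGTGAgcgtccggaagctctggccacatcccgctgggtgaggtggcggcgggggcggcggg
Slc35a5, chr16:45158624-45158923, - strand: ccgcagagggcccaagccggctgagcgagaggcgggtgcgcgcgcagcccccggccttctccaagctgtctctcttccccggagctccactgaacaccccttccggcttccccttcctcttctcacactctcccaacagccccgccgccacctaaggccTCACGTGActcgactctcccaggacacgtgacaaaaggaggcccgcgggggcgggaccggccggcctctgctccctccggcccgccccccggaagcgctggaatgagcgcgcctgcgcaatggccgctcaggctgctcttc
Slc25a36, chr9:97110992-97111291, - strand: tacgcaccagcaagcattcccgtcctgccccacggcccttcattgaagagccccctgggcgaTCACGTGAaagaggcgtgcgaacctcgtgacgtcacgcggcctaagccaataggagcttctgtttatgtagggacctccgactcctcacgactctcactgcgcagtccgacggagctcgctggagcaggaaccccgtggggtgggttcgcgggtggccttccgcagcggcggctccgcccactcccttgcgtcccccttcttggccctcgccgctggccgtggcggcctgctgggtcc
The motif starts at position -4 from the start site in Slc36a1, -14 in Slc37a3, -91 in Slc35a5 and -188 in Slc25a36. It occurs in 2.42% of the 165 windows of members (121 genes with an entry) and in 0.974% of all 32851 windows. The E-box CACGTG, which TCACGTGA contains, occurs in 15.2% and 7.15%. Members with the E-box were called both ways with LPS and control siRNA, for example Slc31a2 and Slc49a4 higher and Slc25a13 lower. With control siRNA the 4 genes had 775, 882 and 811 in vehicle and 257, 205 and 248 in LPS, 323, 349 and 365 and 100.3, 117 and 88.8, 738, 836 and 939 and 567, 534 and 549, and 896, 928 and 963 and 819.6, 736 and 635, in the order of the sequences. The falls were 1.80, 1.76, 0.60 and 0.35 on the log2 scale, and the smallest of them had a limma adjusted p of 0.0256. With Brg1 siRNA all 4 fell too, by 1.96, 1.43, 0.39 and 0.64. A match of letters is a description and does not show that a factor binds there, and the genes were picked after their values were seen.

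The LPS responses with the 2 siRNAs share no libraries. Of the members, 47 were called higher (30.5%, against 31.5% of all tested genes) and 64 lower (41.6%, against 32.0%) with both siRNAs, and 5 (3.2%, against 0.6%) were called in opposite directions: Slc43a3, Slc16a6, Slc39a8, Slc35g1 and Slc9a3r1. The difference itself, the effect of the knockdown in LPS less its effect in vehicle, was called for 13 members in the positive and 14 in the negative direction (17.5%, against 11.4% of all genes, 6.39% positive and 5.05% negative, and 13.6% of those at the same level). With library totals these were 10 and 25, and without control vehicle replicate 1 the negative count was 9. At an unadjusted p under 0.05 there were 51 in all (33.1%, against 24.2% of all genes).

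**Figure D4:**
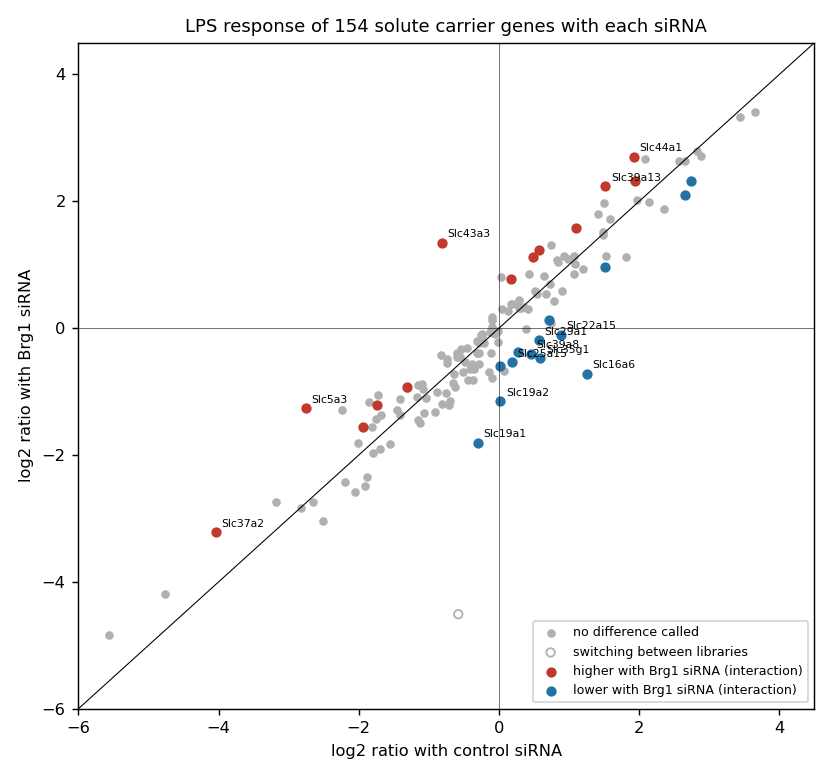
Log2 ratio of LPS to vehicle with control siRNA (horizontal axis) and with Brg1 siRNA (vertical axis) for the 154 genes, with the line of equal response. Red and blue points differ between the siRNAs by the interaction test, those that differ by 0.7 or more on the log2 scale are named, and the open point, Slc5a6, varied over 10-fold between libraries of a group. Slc43a3 is the only named gene with a negative ratio on the horizontal and a positive one on the vertical axis.

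Slc43a3, known as a purine nucleobase carrier although its family number groups it with amino acid carriers, had the largest positive difference. Its counts went from 175, 189 and 177 in vehicle to 73.3, 96 and 149.7 in LPS with control siRNA and from 93.3, 91.5 and 151 to 242, 333 and 267 with Brg1 siRNA. LPS lowered it with control siRNA (log2 fold change -0.82, SE 0.22, adjusted p = 0.00243 by limma) and raised it with Brg1 siRNA (log2 fold change 1.35, SE 0.22, adjusted p = 2.04e-05). The interaction was 2.16 (SE 0.31, limma adjusted p = 0.000117). Slc16a6, a monocarboxylate carrier known for ketone bodies, showed the reverse. It went from 182, 276 and 312 to 598, 529.9 and 672 with control siRNA and from 323, 350.3 and 411 to 263, 217 and 183 with Brg1 siRNA, at an interaction of -1.97 (SE 0.27, limma adjusted p = 9e-05). Of its words, 22.4% occur in other genes.

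Slc44a1, the choline carrier CTL1, rose with LPS in both arms, from 2491, 2551 and 2434 to 9201, 9732 and 9435 with control siRNA and from 1963, 1947 and 2033 to 13286, 12698 and 12776 with Brg1 siRNA. The rise was larger with Brg1 siRNA by 0.78 (SE 0.079, limma adjusted p = 2.98e-06). Slc37a2 fell less with Brg1 siRNA, from 6835, 6728 and 6774 to 694, 874 and 638, an interaction of 0.82 (limma adjusted p = 0.00191). Slc5a3 also fell less, from 203, 224 and 219 to 86, 89.7 and 92.1, and reached in LPS the range of the control libraries. Its interaction was 1.49 (limma adjusted p = 0.00633). Slc39a8, the zinc and manganese importer ZIP8, went from 211, 191 and 179 to 269, 285 and 245 with control siRNA and from 286, 288 and 295 to 238, 191 and 231 with Brg1 siRNA, an interaction of -0.86 (limma adjusted p = 0.0014). The vitamin carrier Slc19a2 fell with LPS by 1.15 with Brg1 siRNA, where with control siRNA the change was 0.019 (limma adjusted p = 0.918). Its interaction was -1.17 (limma adjusted p = 0.00168). Slc19a1, also a vitamin carrier, changed by -1.80 with Brg1 and -0.30 with control siRNA. It missed the level in LPS with Brg1 siRNA alone, so a fall there is built into its choice and no test is given.

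Dex was compared with LPS alone. With control siRNA 35 members were higher and 44 lower in Dex+LPS (51.3%, against 48.7% of all tested genes, 23.4% higher and 25.2% lower, and 53.3% of those at the same level), so the share of members called was near the background. With Brg1 siRNA 40 were higher and 39 lower (51.3%, against 44.4% of all genes, 21.3% higher and 23.0% lower, and 49.3% of those at the same level). With library totals, which raised the median of all genes to 0.28 and 0.31, the counts were 70 and 27 and 78 and 19. Of the 128 members with all 6 group means at 50 or more, 51.6% were called with control and 50.8% with Brg1 siRNA, against 52.0% and 48.1% of such genes. Both siRNAs gave the same call for 28 members higher (18.2%, against 16.1% of all genes) and 33 lower (21.4%, against 18.9%), and no member was called in opposite directions, against 0.2% of all genes. Within an siRNA both responses use the same LPS libraries, so their values are given side by side only.

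The largest rise among members with all 6 group means at 50 or more was that of Slc6a12 (GRCm38.p6 chromosome 6, 121342574 to 121365773). Its neighbour Slc6a13 (chromosome 6, 121300288 to 121337721), 4853 bases away, is a member only through its 2 Dex+LPS groups, so its Dex response is given as values without a test. They encode BGT1 and GAT2, which import betaine and GABA with sodium. With control siRNA Slc6a12 had 260.3, 235 and 234 in vehicle, 474, 444 and 465 in LPS and 4334, 4018, 4333 and 4577 in Dex+LPS. With Brg1 siRNA these were 75.7, 183 and 163, 298, 283 and 289.8 and 2607, 2297, 2744 and 2476. Slc6a13 had 18.4, 10.8 and 9.61, 24.8, 16.2 and 24.6 and 228, 193, 169.9 and 237 with control siRNA and 9.57, 13.3 and 8.53, 19.9, 31.2 and 31.8 and 106, 114, 114 and 137 with Brg1 siRNA. Dex+LPS libraries lay far above all others for both genes. The Dex response was 3.22 (SE 0.19) with control and 3.12 (SE 0.19) with Brg1 siRNA for Slc6a12. The limma interaction was -0.11 for Slc6a12 (adjusted p = 0.901), so no difference in its Dex response was called. In Dex+LPS both Slc6a12 and Slc6a13 were lower with Brg1 siRNA, by 0.77 (limma adjusted p = 0.00214) and 0.80 (limma adjusted p = 0.00839). In vehicle the fall of Slc6a12 with Brg1 siRNA lost its call when only the 2 vehicle groups were fitted (adjusted p = 0.11), and replicate 1 of the Brg1 siRNA group was the lowest library.

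Among the 7 motifs searched in promoter windows, on both strands, a 10-base NF-kB consensus site was found in members only in Slc6a12 and Slc6a13. It is shown because no other member window held it, and motifs were added after the values were seen. NF-kB is a factor that LPS is known to activate, and its part in these genes was not tested. The windows are from RefSeq, build GRCm38.p6, 5′ to 3′, with the site in capitals.
Slc6a12, chr6:121342324-121342623, + strand: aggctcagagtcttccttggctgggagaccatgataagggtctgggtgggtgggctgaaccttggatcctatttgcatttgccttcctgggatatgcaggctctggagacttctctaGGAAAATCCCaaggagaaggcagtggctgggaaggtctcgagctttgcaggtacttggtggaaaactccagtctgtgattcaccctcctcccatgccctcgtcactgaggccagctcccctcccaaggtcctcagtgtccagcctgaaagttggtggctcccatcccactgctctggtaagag
Slc6a13, chr6:121303389-121303688, + strand: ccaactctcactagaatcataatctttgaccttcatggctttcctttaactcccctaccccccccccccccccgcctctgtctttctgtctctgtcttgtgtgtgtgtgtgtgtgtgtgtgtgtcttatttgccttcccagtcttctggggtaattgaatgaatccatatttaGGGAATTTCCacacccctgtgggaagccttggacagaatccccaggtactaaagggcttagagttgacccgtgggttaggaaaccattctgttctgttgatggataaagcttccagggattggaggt
The Slc6a12 window is 1 of 5 for that gene and lies at the start of the annotated gene, and the site begins at -133. The Slc6a13 window is 1 of 3, belongs to a start inside the gene, and its site begins at -77. The site occurs in 1.21% of member windows and 0.411% of all. A full glucocorticoid receptor palindrome was in 0 of the 165 member windows and in 3 of all 32851. One arm of it, AGAACA, was in 11.5% of member windows and 18.97% of all, an interferon-stimulated response element in 1.82% and 3.44%, and the AP-1 site TGANTCA in 6.06% and 7.81%. These are descriptions of letters in these windows alone.

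Slc43a2 rose with Dex from 1517, 1266 and 1459 in LPS to 6026, 4843, 5860.4 and 7604 with control siRNA (log2 fold change 2.09, SE 0.15, adjusted p = 2.55e-09 by limma), which overlaps the vehicle libraries, at 5657, 6608 and 7183. Slc43a3 rose from 73.3, 96 and 149.7 to 359.7, 315, 424 and 429 (log2 fold change 1.89, SE 0.20, adjusted p = 4.04e-07 by limma). In Dex+LPS it was higher again with Brg1 siRNA, at 747, 748, 667 and 715. The mitochondrial carriers Slc25a30 and Slc25a10, the latter a dicarboxylate carrier, rose by 1.19 and 1.00 on the log2 scale. Slc50a1 and Slc41a2, a magnesium carrier, rose by 0.92 and 0.91.

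Among falls with Dex, Slc7a8 went from 1432, 1453 and 1502 in LPS to 463, 421, 482 and 476 with control siRNA (log2 fold change -1.67, SE 0.057, adjusted p = 6.77e-14 by limma). Slc28a2 went from 6152, 5945 and 6065 to 2248, 1975, 1996 and 2011, and Slc13a3 from 837, 650.2 and 669 to 237, 268, 237 and 250.2. Slc39a13, a zinc carrier of the early secretory pathway, fell by 1.20, Slc39a8 by 1.44 and Slc25a22, a mitochondrial glutamate carrier, by 1.46. Genes of the metal families had 2 higher and 8 lower of 20, at a median of -0.19. With library totals these were 6 and 4, at a median of 0.10. Slc7a7 reached the level in the LPS groups and not in Dex+LPS, so a fall is built into its choice and no test is given. With control siRNA it had 66.5, 74 and 170.1 in LPS and 17.2, 49.2, 5.09 and 11.5 in Dex+LPS. Its call was also lost in 6 alternatives.

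The Dex effect differed between the siRNAs in the interaction test for 10 members, 7 in the positive and 3 in the negative direction (6.5%, against 3.97% of all genes, 2.75% positive and 1.22% negative, and 4.75% of those at the same level). At an unadjusted p under 0.05 there were 28 (18.2%, against 16.2% of all genes). This count was small and moved with single libraries: leaving out 1 library at a time gave 3 to 7 positive and 1 to 5 negative calls, and when the 4 higher numbered libraries were dropped it was 4 and 2. Slc16a6 had the largest difference, since with control siRNA Dex lowered it from 598, 529.9 and 672 to 195, 137, 207 and 217, while with Brg1 siRNA it had 263, 217 and 183 and 205, 199.6, 229 and 209.6. The interaction was 1.62 (SE 0.25, limma adjusted p = 0.000954). In Dex+LPS the libraries of the 2 siRNAs overlapped for Slc16a6 (log2 fold change 0.18, SE 0.17, adjusted p = 0.443 by limma). Slc19a2 and Slc39a8 had interactions of 0.97 and 0.79 (limma adjusted p = 0.0112 and 0.00463). Slc44a1 had -0.38 (limma adjusted p = 0.00572, and 0.0548 without the higher number series). Without that series Slc16a10 and Slc28a2 also lost their calls in this comparison, at adjusted p-values of 0.103 and 0.164.

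**Figure D5:**
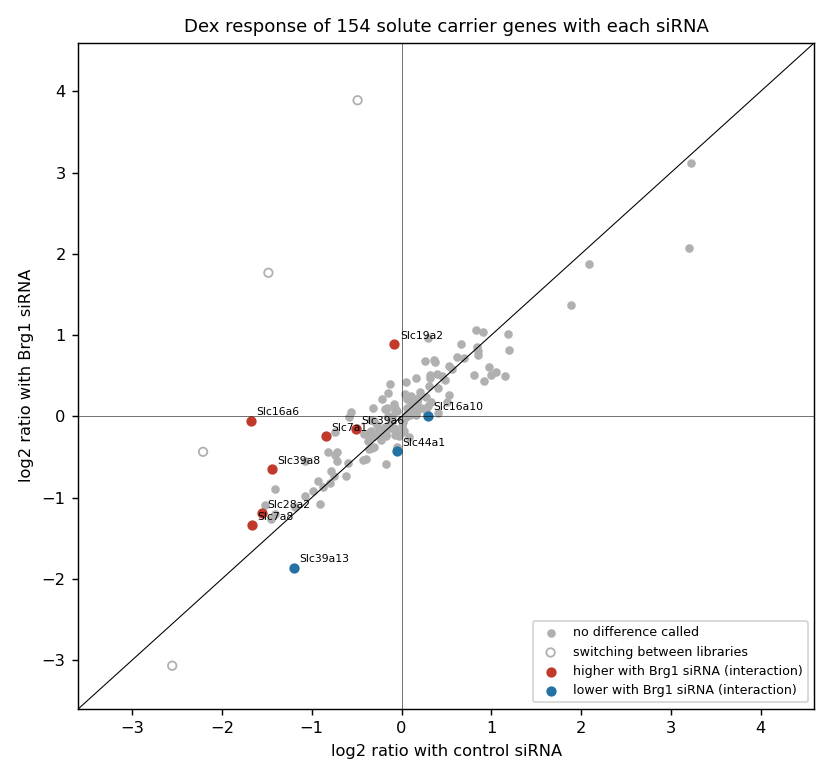
Log2 ratio of Dex+LPS to LPS with control siRNA (horizontal axis) and with Brg1 siRNA (vertical axis) for the 154 genes, with the line of equal response. The 10 genes that differ by the interaction test are red or blue and named, and open points are the 4 genes that varied over 10-fold between libraries of a group. Slc6a12 lies near the line at the upper right, and Slc16a6 lies off it at -1.68 on the horizontal and -0.055 on the vertical axis.

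A total of 4 members varied over 10-fold between libraries of at least 1 group, namely Slc5a6, Slc7a7, Slc35b3 and Slc37a1, and were not used as examples in those comparisons. Of 37 tested transporter genes with other symbols, 6 were higher and 3 lower with Brg1 siRNA in vehicle, 7 and 4 in LPS, and 6 and 5 in Dex+LPS. Among them Ctns, the lysosomal cystine exporter, was called higher in all 3. Of the 15 carriers left out by name, 1 was higher and 3 lower in vehicle, 3 and 8 in LPS, and 2 and 7 in Dex+LPS. Beside these lists, 9.39% of all tested genes were higher and 10.8% lower in vehicle, 17.3% and 15.8% in LPS, and 19.0% and 15.3% in Dex+LPS. At an adjusted p under 0.05, the authors' deposited table gave the same call for 47 of the 47 members that limma called in vehicle. It did so for 66 of 69 in LPS and 59 of 61 in Dex+LPS. Over the 7 comparisons that table covers, no member was called in the opposite direction to limma.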

How the data were processed

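RNA of 20 mouse macrophage libraries was sequenced. Salmon 1.4.0, R 4.1.0, DESeq2 and DESeq are named, beside the builds mm10 and GRCm38.p6, per the submitters' processing notes. The authors deposited normalized signal per gene, which the file headers name as a DESeq normalization, and for 7 comparisons log2 fold changes with standard errors and p-values (plain and adjusted), computed by the authors. The signal is whole reads over a size factor: 99.9505% of nonzero values came to a whole read of their library within 0.01. The labels' protocols name a stranded mRNA kit and also rRNA depletion, and the strand counted is not given in the sources used here.

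Groups were compared in R 4.3.3 with the trend option of limma 3.58.1. The fit used log2 of the normalized count plus 1, all 20 libraries together, for genes with at least 10 in at least 3 libraries (12061), with Benjamini-Hochberg adjustment within a comparison. The pseudocount makes fold changes of low genes too small. Alternatives were pseudocounts of 0.5 and 5, no filter, TMM and library totals, edgeR 4.0.16 and DESeq2 1.42.0 on recovered reads, the compared groups alone, a replicate block, the library number series as a covariate or left out, and each library left out. The script was tested on simulated data.

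Members, classes, lists and tests were chosen with earlier results of these data known. Named genes were, per knockdown effect and control siRNA response, the 10 largest rises and falls with an adjusted p under 0.05 and no overlap between libraries, per interaction the 5 largest each way, and per class the largest called knockdown effect. Genes beyond the rule were named after their values were seen, namely pairs of related carriers, the members called in all 3 knockdown comparisons and the promoter genes. Motifs, promoters, shared words and the background of genes with a mean of 50 or more were added after seeing the data. Words are the 31-base stretches of a gene's GENCODE transcripts. Promoters came from RefSeq for 121 of 154 members.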

Additional observations from a re-analysis of the deposited data

Results flagged for a closer look

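In the Dex+LPS groups, the only ones with 4 libraries, 7 gene levels had 1 library far from the other 3, out of 120 groups of named genes tested (5.8%). A library stood apart when its gap to the nearest of the others, divided by the whole range of the group, was above Dixon's 95% critical value for 4. Chance flags about 1 in 20. Slc1a2, with control siRNA, read 107.8 in replicate 1 against 58.8 to 62.1 in the others, and Slc28a2 read 2248 in that same library against 1975 to 2011. Slc41a3 read 120.9 in control replicate 4 against 90.6 to 93.3, and 30.9 in Brg1 siRNA replicate 1 against 49.2 to 50.2. Slc16a10 read 9117 in Brg1 siRNA replicate 1 against 8601 to 8642. Slc45a4 read 164 in Brg1 siRNA replicate 4 against 114 to 123. Slc5a3 read 55.6 in control replicate 2 against 70.7 to 73.5.

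The effect of the knockdown differed between LPS and vehicle by the limma interaction test, on the log2 scale, by 2.16 for Slc43a3, 1.49 for Slc5a3, 0.82 for Slc37a2, 0.78 for Slc44a1 and 0.72 for Slc39a13. In the other direction it differed by -1.97 for Slc16a6, -1.50 for Slc19a1, -1.17 for Slc19a2, -1.07 for Slc35g1 and -0.99 for Slc22a15. Between Dex+LPS and LPS it differed by 1.62 for Slc16a6, 0.97 for Slc19a2, 0.79 for Slc39a8, 0.59 for Slc7a1 and 0.36 for Slc28a2, and by -0.66 for Slc39a13, -0.38 for Slc44a1 and -0.29 for Slc16a10. The calls of the last comparison were close to the threshold for Slc28a2 (adjusted p = 0.0466, lost in 16 of 25 alternatives), Slc39a13 (0.0391, lost in 14) and Slc7a1 (0.0375, lost in 12). Slc16a10 lost its call there in 4. Between LPS and vehicle Slc19a1 lost its call in 11 of 23 alternatives and Slc22a15 in 8. Slc19a1 missed the level only in LPS with Brg1 siRNA, and Slc22a15 only in vehicle with control siRNA. A difference in that comparison is thus built into their choice.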

How the results depend on the processing

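Of 121 results named by the rule, 104 kept their call in every alternative and 17 lost it in at least 1, and none of 2241 gene settings reversed. Results named beyond the rule are not in these counts. Of 342 settings of the member counts, 316 stayed within 1.5 times. With library totals the counts moved to 21 higher for the knockdown in LPS, 44 lower in Dex+LPS, 32 and 33 higher for LPS with control and Brg1 siRNA, 70 higher and 27 lower for Dex with control siRNA, 78 and 19 with Brg1 siRNA, and 25 negative for the LPS interaction. With only the compared groups, 32 members were higher in vehicle, and the Dex interaction had 4 positive and 1 negative. The number series as a covariate gave 23 negative for the LPS and 7 for the Dex interaction, leaving that series out gave 4 positive for the Dex interaction, and DESeq2 gave 5 negative there.

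Leaving out each library in turn gave 17 to 21 higher and 19 to 22 lower for the knockdown in vehicle, 26 to 30 and 30 to 36 in LPS, and 29 to 38 and 22 to 30 in Dex+LPS. For LPS these were 51 to 54 and 62 to 67 with control and 49 to 52 and 72 to 76 with Brg1 siRNA, and for Dex 33 to 41 and 36 to 46, and 32 to 40 and 32 to 39. The interactions had 10 to 13 positive and 9 to 18 negative (9 without control vehicle replicate 1) and 3 to 7 and 1 to 5. For the last, the positive count was 3 without control LPS replicate 1 or Brg1 LPS replicate 2, and 4 without control LPS replicate 2 or 3, Brg1 LPS replicate 3 or Brg1 Dex+LPS replicate 2. The negative count was 1 without control LPS replicate 1 or Brg1 LPS replicate 3 and 5 without Brg1 Dex+LPS replicate 4. Apart from fewer samples or genes in the fit, the cause of these moves was not tested.

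With a replicate block, 22 members were higher and 28 lower in vehicle, 33 and 40 in LPS and 41 and 29 in Dex+LPS. Among results named by the rule only Slc7a7 with Dex lost its call. Deviations of libraries with the same number correlated at -0.166 to 0.406, so the numbers were not taken as pairs. The value of 0.406 is that of the Dex+LPS libraries of replicate 4, both of the higher number series, which holds no vehicle library.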
